A study of Mus musculus with 6 samples.

Results

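The Rtl1-antisense miRNAs treated here are 5 imprinted miRNAs, miR-431, miR-433, miR-127, miR-434 and miR-136, whose hairpins lie on the strand opposite the gene Rtl1. In the table they appear as mmu-miR-127-3p, mmu-miR-136-5p, mmu-miR-431-5p, mmu-miR-433-3p, mmu-miR-434-3p and the opposite arm of each, and the species prefix is left out from here on. They were chosen by name, as every listed arm of these 5 hairpins in the small RNA sequencing of islet sEVs. The rule used no measured value, but earlier results of these data were known when it was set. All 10 arms were listed, among 718 entries in all. The sEVs (small extracellular vesicles, here collected by ultracentrifugation) came from the medium of cultured islets of wild-type (WT) C57/B6J mice. Islets of mice on a normal chow diet (NCD) gave the 3 nid-sEV libraries, and islets of mice on a high-fat diet (HFD) gave the 3 aid-sEV libraries. The study describes its HFD feeding in general as 9 weeks, started at 8 weeks of age, and cultured the islets for 48 hours in serum-free medium. The sources used here do not say how many mice each library pooled, so p-values measure the spread between these libraries, which may in part be technical.

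The hairpins belong to the Dlk1-Dio3 domain, an imprinted region of distal mouse chromosome 12. Protein-coding genes of this region (Dlk1, Rtl1, Dio3) are expressed from the paternal chromosome, and noncoding RNAs (Meg3, the Rtl1 antisense transcript, Rian, Mirg) from the maternal one. Rtl1 is a retrotransposon-derived gene with a known role in the placenta. Because the antisense miRNAs are fully complementary to Rtl1 mRNA, they are known to direct its cleavage in trans, besides the partial pairing through the seed by which miRNAs repress other targets. A hairpin can give a mature miRNA from its 5p arm and another from its 3p arm, and usually 1 arm is kept while the other is degraded.

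The mature sequences are shown because both arms of each hairpin were compared and because they fix which Rtl1 bases each arm pairs with. They were taken from RefSeq (GRCm38.p6), where 10 of 10 arms matched by name, and are written 5′ to 3′ in order along the plus strand of chromosome 12, with the seed (bases 2 to 8) in capitals.
miR-431-5p: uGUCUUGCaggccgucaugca
miR-431-3p: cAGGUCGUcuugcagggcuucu
miR-433-5p: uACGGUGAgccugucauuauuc
miR-433-3p: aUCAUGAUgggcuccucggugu
miR-127-5p: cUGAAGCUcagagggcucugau
miR-127-3p: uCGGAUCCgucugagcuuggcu
miR-434-5p: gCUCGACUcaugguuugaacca
miR-434-3p: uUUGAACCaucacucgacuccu
miR-136-5p: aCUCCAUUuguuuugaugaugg
miR-136-3p: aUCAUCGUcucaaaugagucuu

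The 10 seeds were all different, and no other mature sequence of the RefSeq mouse table carried any of them. Each mature sequence came from 1 hairpin only, so no paralogous copy shares its reads. Within hairpins, the arms of miR-434 shared a stretch of 9 bases and those of miR-431 a stretch of 10 bases. For miR-434 this stretch, in capitals, closes the 5p arm and opens the 3p arm.
miR-434-5p: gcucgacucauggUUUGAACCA
miR-434-3p: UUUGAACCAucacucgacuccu
The 2 arms therefore hold the same 9 bases at opposite ends, and 13 bases of each arm lie outside the stretch.

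The 5 hairpins span 4942 bases of GRCm38. Mir431 is at chr12:109590447-109590537, Mir433 at chr12:109591715-109591838, Mir127 at chr12:109592846-109592915, Mir434 at chr12:109594506-109594599 and Mir136 at chr12:109595327-109595388, all on the plus strand. Rtl1 (chr12:109589193-109600330) is on the minus strand, and all 10 arms fall inside its coding sequence (chr12:109590172-109595403, 5232 bases), not in its UTRs. Each arm had 1 perfectly complementary site in the Rtl1 transcript of the GENCODE annotation. The site of miR-127-3p begins 2495 bases into the coding sequence, and that of miR-136-3p begins 17 bases into it. As the pairing partners of the most abundant arm of each of the leading 2 hairpins, the following sites are shown in the sense of Rtl1.
Site of miR-127-3p: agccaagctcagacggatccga
Site of miR-434-3p: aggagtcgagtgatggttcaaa

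**Figure D1:**
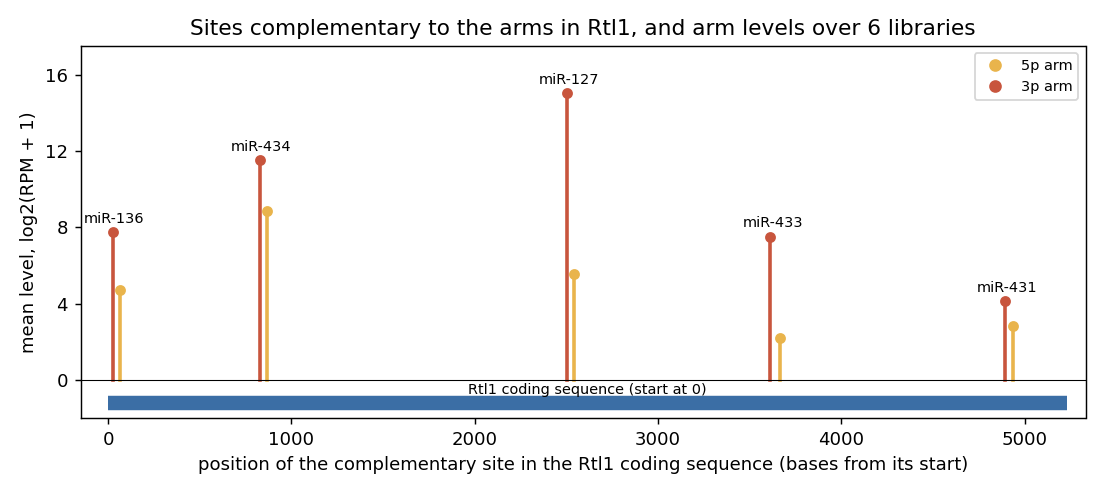
Mean level of each arm over the 6 libraries, as log2(RPM + 1), at the position of its complementary site in the Rtl1 coding sequence (x axis, bases from the coding start; yellow, 5p arms; red, 3p arms). In every hairpin the 3p arm stands above the 5p arm, and miR-127-3p is the highest of the 10.

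The values are RPM, in which the reads of each library are scaled to the same total. The libraries were shallow, with 50534 to 129152 reads in nid-sEVs and 122266 to 519315 reads in aid-sEVs. A level of 3 reads was 23.2 to 59.4 RPM in nid-sEVs and 5.78 to 24.5 RPM in aid-sEVs. An entry is called detected here when it had at least 1 read, and by that measure 6 of the 10 arms were detected in all 6 libraries, while 5 were above 3 reads in all of them. In nid-sEV 1, 33.5% of the reads fell on entries lacking a miRBase name, against 6.61% to 9.46% in the other libraries. As a check of the labelled source, the summed level of islet endocrine miRNAs (the miR-375, miR-7 and miR-184 lists) was 209882 ± 143740 RPM in nid-sEVs and 177782 ± 11379 RPM in aid-sEVs (SD, n = 3). Of the lists for other cell types, the summed levels for blood (mean 7570 RPM in nid-sEVs and 1069 RPM in aid-sEVs), epithelium (7675 and 3347 RPM) and liver (1671 and 35.2 RPM) did not overlap between the groups and were lower in aid-sEVs. The liver list held 1 entry only, and 3 of 9 blood and 3 of 7 epithelial entries were lower without overlap, beside 7.52% of all entries. The neural list was higher in aid-sEVs without overlap (1681 and 3674 RPM). Of its 6 entries this held for 1 only, miR-124-3p (74.4 and 2271 RPM), on which the neural sum turns. The mesenchymal, endothelial and exocrine pancreas lists overlapped. Their part in the results on the Rtl1-antisense miRNAs was not tested. In vesicles collected from whole islets, fewer cells of a type and less RNA released per cell cannot be told apart.

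miR-127-3p was one of the most abundant miRNAs of islet sEVs and carried nearly all the signal of the group. It was present at 27634, 36013 and 47255 RPM in nid-sEVs and at 31832, 26635 and 28585 RPM in aid-sEVs. Ranked by group mean, it was entry 5 of nid-sEVs and entry 10 of aid-sEVs. On this scale the groups overlapped, because nid-sEV 1 lay within the range of the aid-sEV libraries, and the highest library was nid-sEV 3. The means were 36967 ± 9845 RPM and 29017 ± 2626 RPM (SD, n = 3). The log2 fold change of aid-sEVs over nid-sEVs was -0.32 (SE 0.27, 95% interval -0.98 to 0.34, limma, adjusted p = 0.47). Its sign depended on the scaling, since it was -0.49 when RPM was rescaled over entries with a miRBase name (adjusted p = 0.17) and 0.18 with TMM scaling (adjusted p = 0.77). On the rescaled values nid-sEV 1, with its many reads on unnamed entries, moved to 41567, and the groups no longer overlapped (39863 to 52239 in nid-sEVs, 28532 to 34521 in aid-sEVs). Before rescaling, 7.52% of all entries were lower in aid-sEVs without overlap, and this share was not determined on the rescaled values. In linear terms the interval covers a ratio from 0.51 to 1.27. At least 2365 reads stood behind each value, so the spread of 26.6% (coefficient of variation) between nid-sEV libraries far exceeded the counting error of 2.06% at the fewest reads.

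miR-434-3p was the second arm of the group in level. It stood at 3430, 3350 and 1524 RPM in nid-sEVs and at 3584, 1930 and 3648 RPM in aid-sEVs. Each group had 1 low library, nid-sEV 3 and aid-sEV 2, and the groups overlapped. The log2 fold change was 0.18 (SE 0.49, 95% interval -1.01 to 1.36, limma, adjusted p = 0.85).

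miR-434-5p, its partner arm, was the 1 arm of the 10 whose groups did not overlap. Its level was 147, 274 and 455 RPM in nid-sEVs and 535, 610.4 and 761 RPM in aid-sEVs. Every aid-sEV library was above every nid-sEV library, as was the case for 24.2% of all entries. The mean was 292 ± 155 RPM in nid-sEVs and 635 ± 115 RPM in aid-sEVs (SD, n = 3), a ratio of 2.18. The log2 fold change of 1.25 (SE 0.57, 95% interval -0.12 to 2.62) did not pass the test across all entries (limma, adjusted p = 0.22, and 0.068 before adjustment). The exact two-sided permutation test over the 6 libraries gave p = 0.10, the smallest value that 3 libraries against 3 allow. The nid-sEV values rested on 18 to 23 reads and the aid-sEV values on 93 to 278 reads. With reads thinned to the smallest library the log2 fold change was 1.04 (limma, adjusted p = 0.28).

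The 3p arms of miR-136 and miR-433 were present at a similar level. For miR-136-3p the nid-sEV libraries held 325, 274 and 158 RPM and the aid-sEV libraries 258, 93.7 and 172 RPM. The lowest library was aid-sEV 2, and the groups overlapped (log2 fold change -0.58, SE 0.63, 95% interval -2.10 to 0.93, limma, adjusted p = 0.57). For miR-433-3p the nid-sEV libraries held 201, 60.9 and 218 RPM and the aid-sEV libraries 221, 227 and 147 RPM. The lowest library was nid-sEV 2, with 4 reads, and the groups overlapped again (log2 fold change 0.49, SE 0.69, 95% interval -1.19 to 2.16, limma, adjusted p = 0.69).

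miR-127-5p, the minor arm of the most abundant hairpin, was seen in every library but with 2 to 13 reads. It stood at 23.2, 122 and 59.4 RPM in nid-sEVs and at 25.0, 28.4 and 16.4 RPM in aid-sEVs. The groups overlapped through nid-sEV 1, with a log2 fold change of -1.25 (SE 0.86, 95% interval -3.34 to 0.83, limma, adjusted p = 0.36). It was -1.86 without nid-sEV 1 (limma, adjusted p = 0.12) and -0.69 without nid-sEV 2. The other 4 arms were at 0 reads in at least 1 library. miR-136-5p held 0 to 5 reads in nid-sEVs and 0 to 13 in aid-sEVs, and miR-431-3p held 0 to 3 and 0 to 14. miR-431-5p held 0 to 1 and 0 to 5 reads, and miR-433-5p did not exceed 2 reads in any library. For these 4 arms a change between the groups was not detectable at this depth, with 95% intervals on the log2 scale of which the widest, that of miR-136-5p, ran from -5.28 to 5.04.

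**Figure D2:**
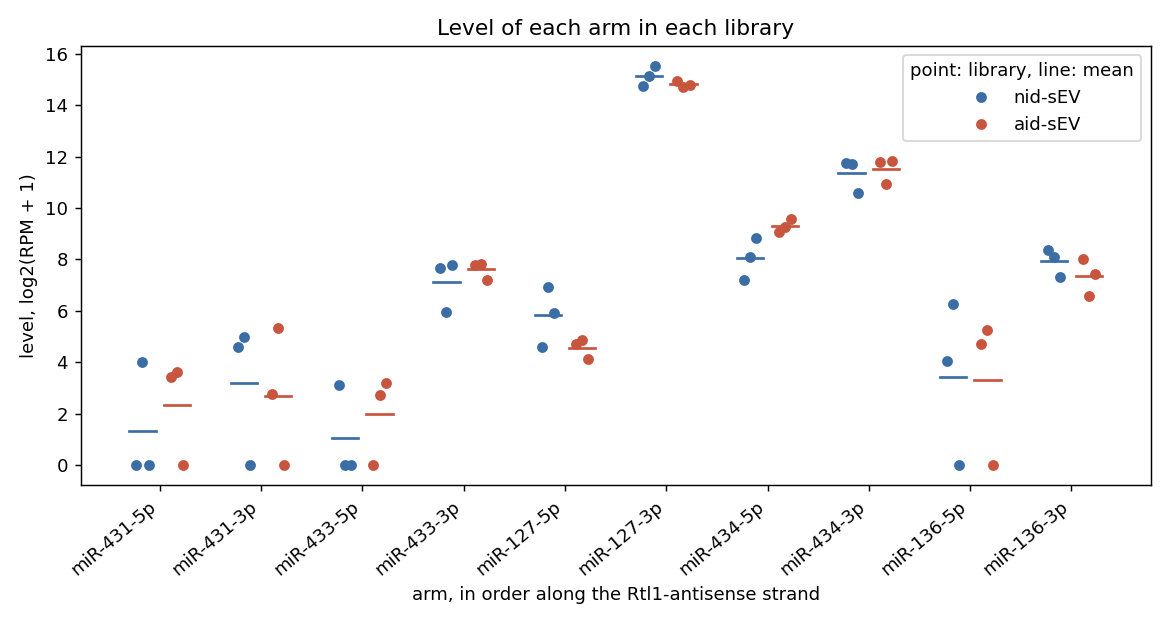
Level of each arm as log2(RPM + 1) (y axis) in the 3 nid-sEV (blue) and 3 aid-sEV (red) libraries, with lines at the group means. The points of the groups separate only for miR-434-5p, and miR-431-5p, miR-431-3p, miR-433-5p and miR-136-5p have libraries at 0.

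The order of levels was similar in both groups. In nid-sEVs, miR-127-3p was above miR-434-3p and miR-434-3p above miR-434-5p in every library, while each lower neighbour pair overlapped. In aid-sEVs the same 2 steps held, and 2 more neighbour pairs did not overlap. miR-434-5p, at 535 RPM or more, was above miR-433-3p, at 227 RPM or less, and miR-136-3p, at 93.7 RPM or more, was above miR-127-5p, at 28.4 RPM or less. miR-433-3p and miR-136-3p could not be ordered in either group. These are levels of RNAs of nearly equal length, 21 to 22 bases, so RPM can be compared between arms, although ligation and amplification of small RNAs differ with sequence.

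A call needed a limma adjusted p under 0.05 together with a change of more than 1 on the log2 scale. None of the 10 arms was called in either direction, and none had an unadjusted p under 0.05. Over all entries, 15.6% were called up and 1.81% down, and 22.0% and 5.85% had an unadjusted p under 0.05 in those directions. edgeR (quasi-likelihood and exact test) and DESeq2 on the recovered reads also called 0 of the arms they tested. The adjusted p of the 10 arms ran from 0.22 to 0.98, with 5 log2 fold changes above 0 and 5 below. No arm had all of its aid-sEV values below all of its nid-sEV values, against 7.52% of all entries. The median log2 fold change of the 10 arms was 0.027, beside 1.11 over all entries. Over those detected in all 6 libraries it was -0.07 for 6 arms and -0.21 for 219 entries.

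**Figure D3:**
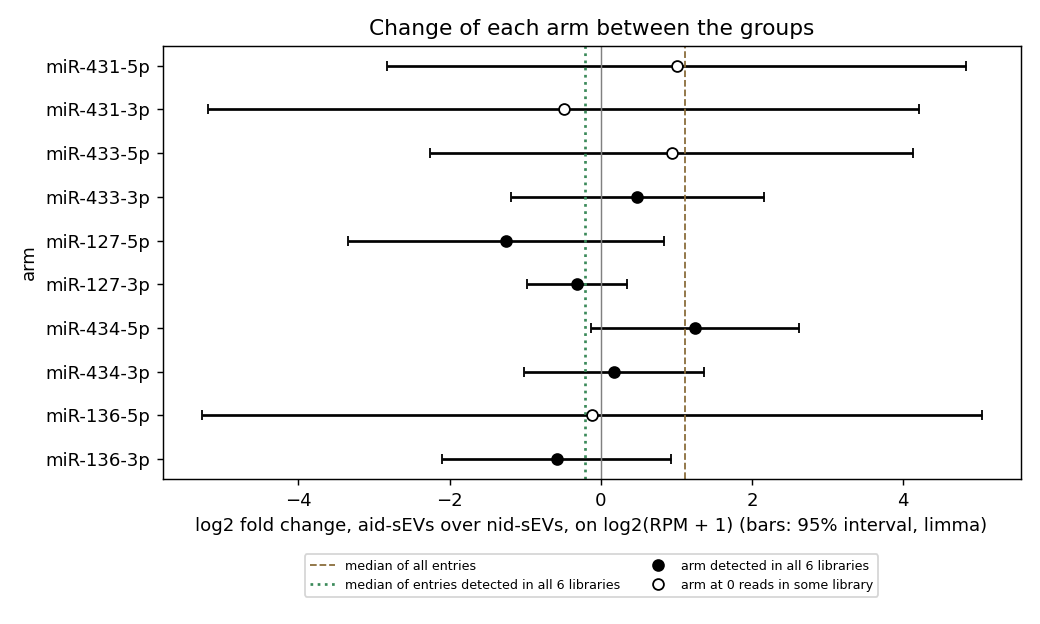
Log2 fold change of each arm, aid-sEVs over nid-sEVs, on the log2(RPM + 1) scale with its 95% limma interval (x axis). Filled points are arms detected in all 6 libraries, and the vertical lines mark the medians of all entries (1.11) and of entries detected in all 6 libraries (-0.21). Every interval includes 0.

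Summed over the 10 arms, the group made up 31807, 40216 and 49670 RPM in nid-sEVs and 36496, 29619 and 33337 RPM in aid-sEVs, or 2.96% to 4.97% of a library. The groups overlapped, with means of 40564 ± 8936 RPM and 33151 ± 3443 RPM (SD, n = 3) and a ratio of 0.82 with a propagated SD of 0.20, which became 1.13 with TMM scaling and 0.73 when rescaled over entries with a miRBase name. Of the summed RPM, 89.5% was miR-127-3p, 7.90% miR-434-3p and 1.26% miR-434-5p. Without miR-127-3p the sum was 3597 ± 1024 RPM in nid-sEVs and 4133 ± 996 RPM in aid-sEVs (SD, n = 3). The summed level is thus mostly that of miR-127-3p.

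Comparison of both arms showed that the 3p arm was the more abundant one in all 5 hairpins. Over all libraries, 37730 of 37769 reads of miR-127 were from the 3p arm (99.9%), and 254 of 258 reads of miR-433 (98.4%). The 5p arm was more visible for miR-136, where the 3p arm had 256 of 289 reads (88.6%, 95% Wilson interval 84.4 to 91.8), and for miR-434, where it had 3727 of 4373 reads (85.2%, 84.1 to 86.2). For miR-431 only 32 reads were available and 22 were from the 3p arm (68.8%, 51.4 to 82.0). Among other hairpins with both arms listed, the 3p arm had the higher mean in 57 of 123 (46.3%) named hairpins and in 11 of 21 (52.4%) from the rest of the Dlk1-Dio3 domain.

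The share of the 3p arm varied between libraries. It ranged from 37.5% to 100% for miR-431, on 32 reads in all. For miR-434, with 4373 reads, it was 95.9%, 92.4% and 77.0% in nid-sEVs and 87.0%, 76.0% and 82.7% in aid-sEVs. nid-sEV 3 fell within the range of the aid-sEV libraries, and the other nid-sEV libraries were above all of them. The mean share of the 5p arm was thus 11.6% in nid-sEVs and 18.1% in aid-sEVs, a difference in the 3p share of -6.53 percentage points that did not pass the exact permutation test (p = 0.40, adjusted p = 0.70 over 5 hairpins). It was -2.81 percentage points without nid-sEV 1, -12.3 without nid-sEV 3 and -8.90 with pooled reads. For miR-136 the 3p share was 95.5%, 78.3% and 100% in nid-sEVs and 91.2%, 71.7% and 100% in aid-sEVs. Libraries of both groups spread over the same range, and the lowest were nid-sEV 2 and aid-sEV 2. The differences for the 5 hairpins had adjusted p = 0.70 in the exact permutation test, and for miR-431, with reads in 2 libraries per group, the smallest p possible was 0.33. A difference in arm use between the groups was therefore not detectable with these libraries.

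**Figure D4:**
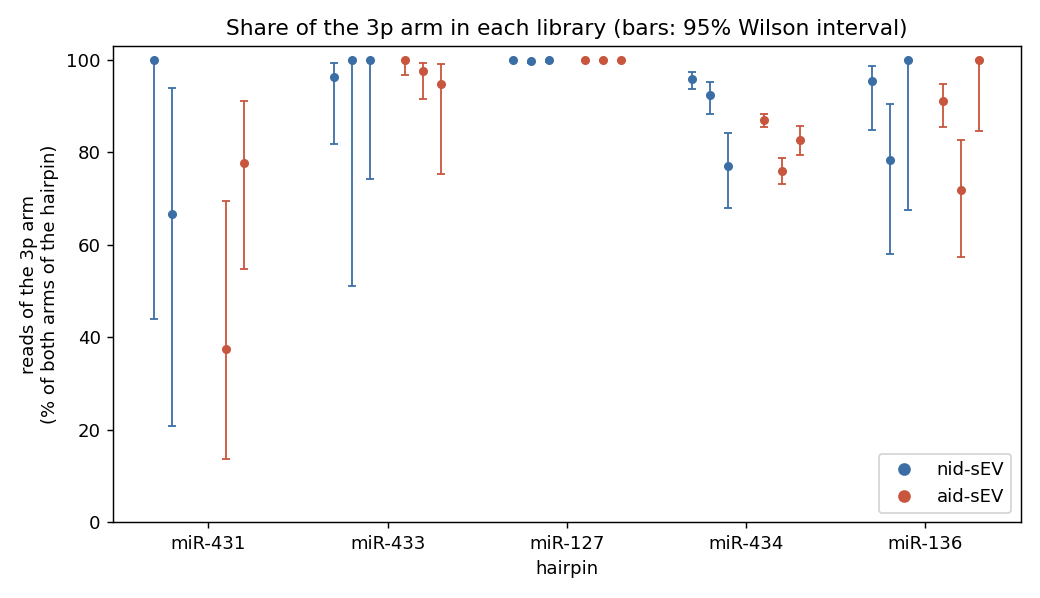
Reads of the 3p arm as a percentage of both arms (y axis) for each hairpin and library (blue, nid-sEVs; red, aid-sEVs), with 95% Wilson intervals that cover counting error only. miR-127 stays near 100% in all libraries, miR-434 runs from 76.0% to 95.9%, and the intervals of miR-431 are wide because it had 32 reads in all.

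The Rtl1-antisense arms were set against the other miRNAs of the Dlk1-Dio3 domain, of which 64 entries were listed and 20 detected in all 6 libraries. Of these 64, 14 were called up and 0 down by limma, beside 15.6% and 1.81% of all entries. Of the 14, 12 were at 0 reads in at least 2 nid-sEV libraries and only 2 were detected in all 6 libraries. Whether library depth had a part in these calls was not tested. The median log2 fold change was 1.74 over the 64 entries, of which 44 were at 0 reads in some library, and 0.40 over the 20 detected in all 6, beside -0.07 for the 6 Rtl1-antisense arms so detected. Their summed level was 25954, 37840 and 31860 RPM in nid-sEVs and 43548, 53213 and 49679 RPM in aid-sEVs. Every aid-sEV library was above every nid-sEV library, with means of 31885 ± 5943 and 48813 ± 4890 RPM (SD, n = 3). The Rtl1-antisense arms made up 55.1%, 51.5% and 60.9% of their joint RPM with these 64 entries in nid-sEVs. In aid-sEVs they made up 45.6%, 35.8% and 40.2%, so these shares did not overlap, although the summed level of the Rtl1-antisense arms alone did. The shares are a description, and no test was made of them. How often such shares separate for other sets was not determined.

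Ratios of miR-127-3p to other miRNAs of the domain within each library do not depend on scaling. They were chosen after the values were seen and are therefore given as a description only. miR-541-5p, the most abundant of the other miRNAs of the domain, made up most of their summed level in every library. It was at 15950, 28399 and 23549 RPM in nid-sEVs and at 28166, 35495 and 33108 RPM in aid-sEVs, levels that overlapped between the groups. The ratio of miR-127-3p to miR-541-5p was 1.27 to 2.01 in nid-sEVs and 0.75 to 1.13 in aid-sEVs. In all nid-sEV libraries miR-127-3p was therefore the higher of the pair, and in 2 of 3 aid-sEV libraries the lower. The mean ratio was 1.67 ± 0.37 and 0.91 ± 0.20 (SD, n = 3). The ratio also did not overlap between groups for miR-409-5p (6.44 to 17.7 in nid-sEVs, 3.38 to 5.90 in aid-sEVs), for miR-381-3p (31.6 to 72.4 and 28.0 to 29.5) and for the sum of the other 64 entries (0.95 to 1.48 and 0.50 to 0.73). Against the 213 other entries detected in all libraries, the ratio of miR-127-3p did not overlap and was lower in aid-sEVs for 23.5% of them, and higher for 13.6%.

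**Figure D5:**
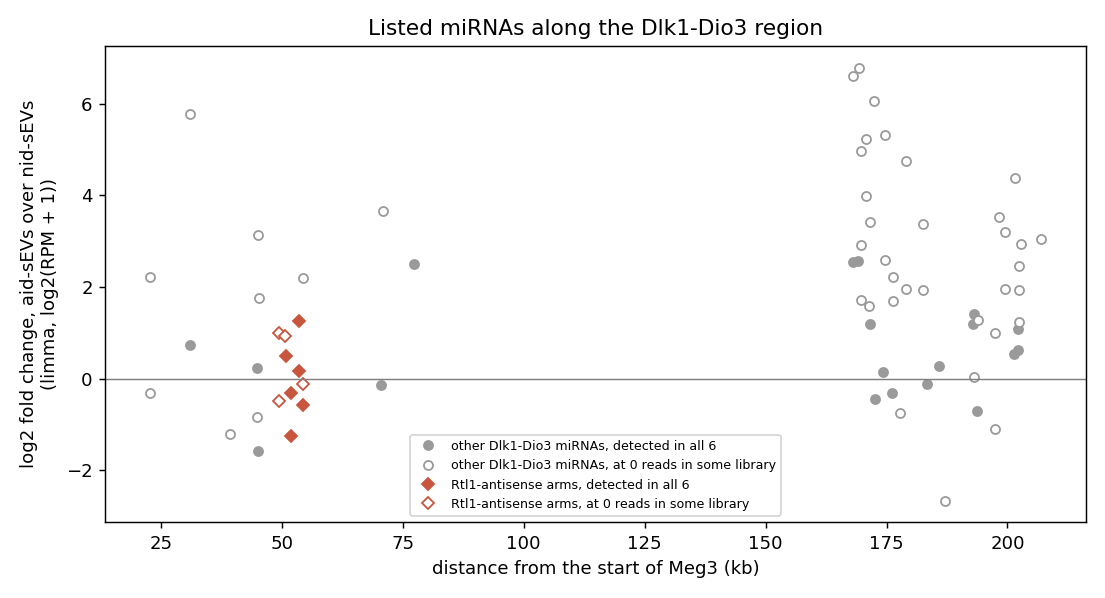
Log2 fold change of listed miRNAs of the Dlk1-Dio3 domain, aid-sEVs over nid-sEVs (y axis, limma on log2(RPM + 1)), by distance from the start of Meg3 in kb (x axis). Red diamonds are the Rtl1-antisense arms, which run from -1.25 to 1.25, grey circles are the other miRNAs of the domain, and open symbols had 0 reads in some library.

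The 5 entries whose profile over the 6 libraries was most like that of the summed arms, by the root mean square difference of centred log2(RPM + 1) among 213 entries, were let-7e-5p (0.11), miR-666-5p (0.16), miR-485-5p (0.18), miR-99b-5p (0.27) and miR-320-3p (0.31). miR-666-5p and miR-485-5p are themselves miRNAs of the Dlk1-Dio3 domain. This is a likeness over 6 libraries and is given as a description.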

How the data were processed

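Small RNA libraries of 3 nid-sEV and 3 aid-sEV samples, grouped by their titles, were analysed. The authors deposited a table of RPM per entry and library, made by a sequencing company after NEBNext library preparation from 5 ng of RNA and NovaSeq sequencing. The submitters' processing notes name fastp 0.23.0, HISAT2 2.2.1 and GRCm38. The miRNA reference, the counter, its use of strand and the test are not given in the sources used here. All entries had reads in at least 2 libraries. Its columns of the authors' own comparison (log2 fold change, mean log2 abundance, p-value and false discovery rate) were not used here.

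Division of the deposited RPM by the smallest nonzero value of each library gave whole reads (100% of values within 0.001 reads), from which library totals were recovered. limma 3.58.1 (lmFit, eBayes with trend, R 4.3.3) was run on log2(RPM + 1) over all 718 entries with group as the only term, and p-values were adjusted by Benjamini-Hochberg over all of them. The log2 fold change of low arms can depend on the added value. For miR-431-5p it was 1.01 with 1 added, 2.06 with 0.1 and 0.24 with 10. Single values and arm shares were compared by exact two-sided permutation over libraries, and shares carry 95% Wilson intervals. The code was tested on simulated data. edgeR 4.0.16, DESeq2 1.42.0, TMM scaling, other pseudocounts (0.1 and 10), filters, thinning, a replicate block and leaving out each library were alternatives. No 2 replicates agreed within counting noise.

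The members and lists were chosen with earlier results of these data known. The miRNAs named were all arms of the 5 hairpins, the 5 entries most like their sum and the 3 most abundant other miRNAs of the domain. miR-124-3p is named because the neural sum turns on it. Sequences and positions of miRNAs are from RefSeq (GRCm38.p6), and those of Rtl1 from its GENCODE M21 transcript Rtl1-201 on GRCm38.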

Additional observations from a re-analysis of the deposited data

How the results depend on the processing

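Under each of the 19 alternatives 0 arms were called among those it tested, which were 8 at a mean RPM of at least 10, 6 among entries detected in all libraries, 5 with edgeR's filter and 10 otherwise. DESeq2 gave no adjusted p for 3 of its 10. The lowest adjusted p was 0.078, for miR-434-5p without nid-sEV replicate 3. The log2 fold change of miR-434-5p stayed above 0 in all 19 (0.83 without nid-sEV replicate 1 to 1.75 with TMM scaling, adjusted p 0.078 to 0.39). Where the cause of a change is not clear from the alternative itself, the cause was not tested. The log2 fold change of miR-127-3p was 0.18 with TMM scaling and 0.11 with edgeR's quasi-likelihood test without a filter and with its exact test, and between -0.56 (quasi-likelihood with its filter) and -0.12 under the others. That of miR-136-5p was 0.052 with centring, 0.35 with TMM scaling, 0.29 with both of these edgeR tests, and -1.84 to 1.54 with a library left out. That of miR-431-3p was 0.32 after thinning, 0.39 with both edgeR tests, 0.021 with DESeq2, and -2.08 to 0.86 with a library left out. After thinning miR-431-5p was at -1.46, and with DESeq2 miR-433-5p was at -0.0011; after thinning miR-433-5p had no reads left and gave no value. With a library left out, miR-434-3p ran from -0.21 (without nid-sEV replicate 3) to 0.48 and miR-433-3p from -0.10 (without nid-sEV replicate 2) to 0.81. The 3p share of miR-433, aid-sEVs minus nid-sEVs, was 0.99 percentage points with pooled reads and -2.62 to 0.015 with a library left out, above 0 without aid-sEV replicate 3. That of miR-136 was -10.1 to 4.34, above 0 without nid-sEV replicate 3 or aid-sEV replicate 2. The ratio of the summed arms was 1.13 with TMM scaling and 1.15 without miR-127-3p.

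Over all entries 112 were called up and 13 down. The calls up were 62 with a pseudocount of 10, 69 at a mean RPM of at least 10, 23 among entries detected in all libraries, 19 after thinning, 48 and 56 with edgeR's quasi-likelihood test with and without its filter, 61 with its exact test and 65 with DESeq2. The calls down were 8 with a pseudocount of 0.1, 3 with TMM scaling, 2 after thinning, 21 and 7 with the quasi-likelihood test with and without its filter, and 50 with DESeq2. With 1 library left out, calls up ran from 33 to 150 and calls down from 1 to 26. TMM scaling moved the median of entries detected in all libraries from -0.21 to 0.29. With the replicate block 0 entries were called up and 0 down. Deviations of same-numbered libraries correlated at -0.05, 0.13 and -0.11, and those of different-numbered libraries at -0.20 to 0.21. With so few libraries this cannot decide whether the numbers mark pairs, which the sources used here do not say. Depth limits the 5 arms with 3 or fewer reads in some library.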

Other observations

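A further miRNA, miR-3071-5p, is read from the minus strand across the miR-136 hairpin and overlaps miR-136-3p by 19 bases on the opposite strand. In nid-sEVs it was counted 6, 0 and 0 times, beside 42, 18 and 8 reads of miR-136-3p. In aid-sEVs it was counted 8, 2 and 5 times, beside 134, 33 and 21. Since the counting's use of strand is not given, reads of this stretch cannot be assigned with certainty to 1 strand. Mir432 lies between Mir434 and Mir136 (chr12:109594956-109595030), on the plus strand and thus also opposite Rtl1, and was not analysed here. By base composition, miR-127-3p holds 59.1% G and C, as does miR-431-3p, and both arms of miR-136 hold 36.4%.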
